A study of Mus musculus with 6 samples.

Results

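Downstream amino acid metabolism was examined in the cardiac ventricles of miR-499 transgenic (TG) mice and of wild-type (WT) littermates at postnatal day 17. The set holds 38 genes of amino acid breakdown, exchange and synthesis, of which 15 act in distal steps of branched-chain amino acid breakdown, 6 in glutamate and alanine metabolism, 13 in serine, glycine and proline metabolism, and 4 in other steps. The genes were listed by name, and each was represented by the probe set with exactly 1 gene symbol in the array annotation and the highest mean value over all mice. In this way 37 of the 38 genes were measured, among 19938 genes on the array. The remaining gene, Pycr1, which makes proline from pyrroline-5-carboxylate, had no probe set with 1 gene symbol in the annotation and is not analysed here.

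RNA from the ventricles of 3 TG and 3 WT mice was hybridised to Affymetrix Mouse Gene 1.0 ST arrays, with 1 array for each animal. The TG mice carried miR-499 under the Myh6 (alpha-myosin heavy chain) promoter, which is active in cardiomyocytes, and came from a single line, TG-17, the lower-expressing of the lines made by injecting FVB/NCrl embryos. The WT mice were littermates without the transgene, and ventricular tissue was used in both groups. The comparison asked which transcripts differ when miR-499 is raised in hearts without overt dysfunction. These hearts were not wholly normal, since the paper reports mildly enlarged cardiomyocytes in TG-17, with heart-to-body weight ratios like those of controls.

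Amino acids reach the mitochondria of heart muscle as fuel and as a source of citric acid cycle intermediates. Leucine, isoleucine and valine share their first reactions, transamination and oxidative decarboxylation, and then follow separate routes to acetyl-CoA, acetoacetate or, through propionyl-CoA, succinyl-CoA. Alanine and aspartate aminotransferases exchange amino groups between glutamate, pyruvate and oxaloacetate in the cytosol and in mitochondria. Glutamine synthetase binds ammonia to glutamate. Serine and glycine are made from a glycolytic intermediate and supply one-carbon units, and proline is made from and broken down to glutamate.

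The sequences shown here are those of the raised microRNA and of the upstream windows of 2 of the 3 genes on which the results turn. The mature strands of mouse miR-499 are from RefSeq on GRCm38.p6, on the plus strand of chromosome 2, and their seeds (bases 2 to 8) are in capitals. miR-499-5p lies at chr2:155622893-155622913 and miR-499-3p at chr2:155622929-155622951.
miR-499-5p: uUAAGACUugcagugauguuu
miR-499-3p: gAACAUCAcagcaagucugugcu

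Of the 37 measured members 33 had a promoter in the RefSeq table, among them Gpt2 (alanine aminotransferase of mitochondria) and Glul (glutamine synthetase). The 250 bases before the gene start are shown 5′ to 3′, with the CCAAT box and the GC box GGGCGG in capitals on whichever strand they lie, and no 2 of these overlap. The Gpt2 window is chr8:85492326-85492575 and the Glul window chr1:153899679-153899928, both on the plus strand of GRCm38.p6.
Gpt2: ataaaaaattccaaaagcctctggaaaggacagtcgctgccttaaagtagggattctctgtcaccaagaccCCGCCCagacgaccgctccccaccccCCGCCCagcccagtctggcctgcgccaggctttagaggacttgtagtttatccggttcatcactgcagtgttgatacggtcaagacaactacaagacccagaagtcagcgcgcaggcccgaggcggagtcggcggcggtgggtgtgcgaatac
Glul: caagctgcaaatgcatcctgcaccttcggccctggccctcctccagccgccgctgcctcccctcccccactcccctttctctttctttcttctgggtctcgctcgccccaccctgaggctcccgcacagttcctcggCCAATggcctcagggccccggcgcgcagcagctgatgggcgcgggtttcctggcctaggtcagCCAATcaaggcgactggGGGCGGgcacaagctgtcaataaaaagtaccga
The Gpt2 window held GGGCGG at 2 places and no CCAAT, and the Glul window held CCAAT at 2 places and GGGCGG at 1. On either strand CCAAT was found in 64.9% of 37 windows, which belong to these 33 members since some have more than 1 window, and in 33.9% of all 32851 windows of the same length in the table, and GGGCGG in 54.1% and 32.7%. Other motifs were searched in the same way, and could overlap each other. TATAAA was in 8.11% of the members' windows and 12.4% of all, CACCC in 70.3% and 52.0%, and CANNTG in 54.1% and 66.2%. AAGGTCA was in 5.41% and 4.08%, TGATGNAA in 2.70% and 3.45%, and TGANTCA in 5.41% and 6.75%. These matches describe the letters in the windows and were not tied to the expression values.

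Each probe set has 1 deposited log2 value per array, made by the authors with RMA, which corrects background, normalizes between arrays and combines probes. No array stood apart, with Pearson's r across probe sets of 0.992 to 0.994 within the groups and 0.990 to 0.992 between them. The array medians were 6.89 to 6.91 in TG and 6.93 to 6.95 in WT, and the standard deviations of the values over probe sets were 2.10 to 2.11 in TG and 2.07 to 2.08 in WT. The transgene's own probe set, Mir499, had 9.31, 9.33 and 8.87 in TG mice and 5.48, 5.34 and 5.68 in WT mice, a 12.7-fold difference. The 8 ventricular cardiomyocyte markers had a mean log2 value of 13.66 to 13.68 in TG and 13.64 to 13.67 in WT. All 5 atrial markers had lower means in TG, and their summary was 8.02 to 8.05 in TG and 8.33 to 8.53 in WT. Of these Myl4 and Myl7, which encode atrial myosin light chains, passed B above 0 (log odds of differential expression from limma) with log2 fold changes of -0.66 and -0.64. The 6 smooth muscle and pericyte markers lay at 9.77 to 9.90 in TG and 9.92 to 10.09 in WT and the 4 adipocyte markers at 5.97 to 6.05 in TG and 6.07 to 6.13 in WT. The 7 fibroblast markers lay at 11.35 to 11.42 in TG and 11.33 to 11.35 in WT, and of 3 Schwann cell markers the 1 measured at 7.28 to 7.43 in TG and 7.49 to 7.63 in WT. The endothelial, leukocyte, erythroid and hepatocyte summaries overlapped between the groups. Such summaries can hide opposite directions. Means were lower in TG for 3 and higher for 4 fibroblast markers, 5 and 1 smooth muscle and pericyte markers, and 3 and 4 leukocyte markers. At an unadjusted p under 0.05 from limma, 8.76% of all genes were lower and 6.65% higher. At that p, 4 of 5 atrial and 3 of 6 smooth muscle and pericyte markers were lower and none higher. Of the leukocyte markers 1 was lower and 1 higher, and 1 adipocyte, 1 hepatocyte and the 1 Schwann cell marker were lower. No ventricular cardiomyocyte, endothelial, fibroblast or erythroid marker passed that p. The RNA came from ventricular tissue and not from sorted cells, so fewer cells of a type and less RNA per cell cannot be told apart, and the part of these other cell types in the results that follow was not tested.

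In the fit over all probe sets, no member of the set passed the cut-offs for a difference between TG and WT ventricles. In fits over fewer probe sets, given below, Gpt passed B above 0. The groups were compared with limma over all 35556 probe sets, and a gene was called at a log odds of differential expression, B, above 0 (assumed share of changed probe sets 0.01) or at an adjusted p under 0.05 after the Benjamini-Hochberg correction. At B above 0, none of 37 members was lower and none was higher, against 0.211% and 0.13% of all genes. At the adjusted p, none of 37 passed, against 0.01% of all genes. At an unadjusted p under 0.05 from limma, 5 members were lower (13.5%, against 8.76% of all genes) and 1 was higher (2.70%, against 6.65%). These 6 members made up 16.2% of those measured, and 15.4% of all genes passed that p in either direction, so the count is close to the background. The 3 TG values lay below the 3 WT values for 8 members (21.6%, against 13.6% of all genes) and above them for 3 members (8.11%, against 12.2%).

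The 6 members were the alanine aminotransferases Gpt and Gpt2, the branched-chain genes Aldh6a1, Ivd and Mcee, all lower in TG, and Glul, higher in TG. The median log2 fold change (TG minus WT) was -0.033 over the members and -0.018 over all genes, and the members ranged from -0.40 to 0.29. The median standard error (SE) of a member was 0.062 on the log2 scale. For 25 of the 37 members the 95% interval of the change from limma lay wholly within 1.2-fold in either direction. The plot of log2 fold changes shows how the members lie around 0.

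**Figure D1:**
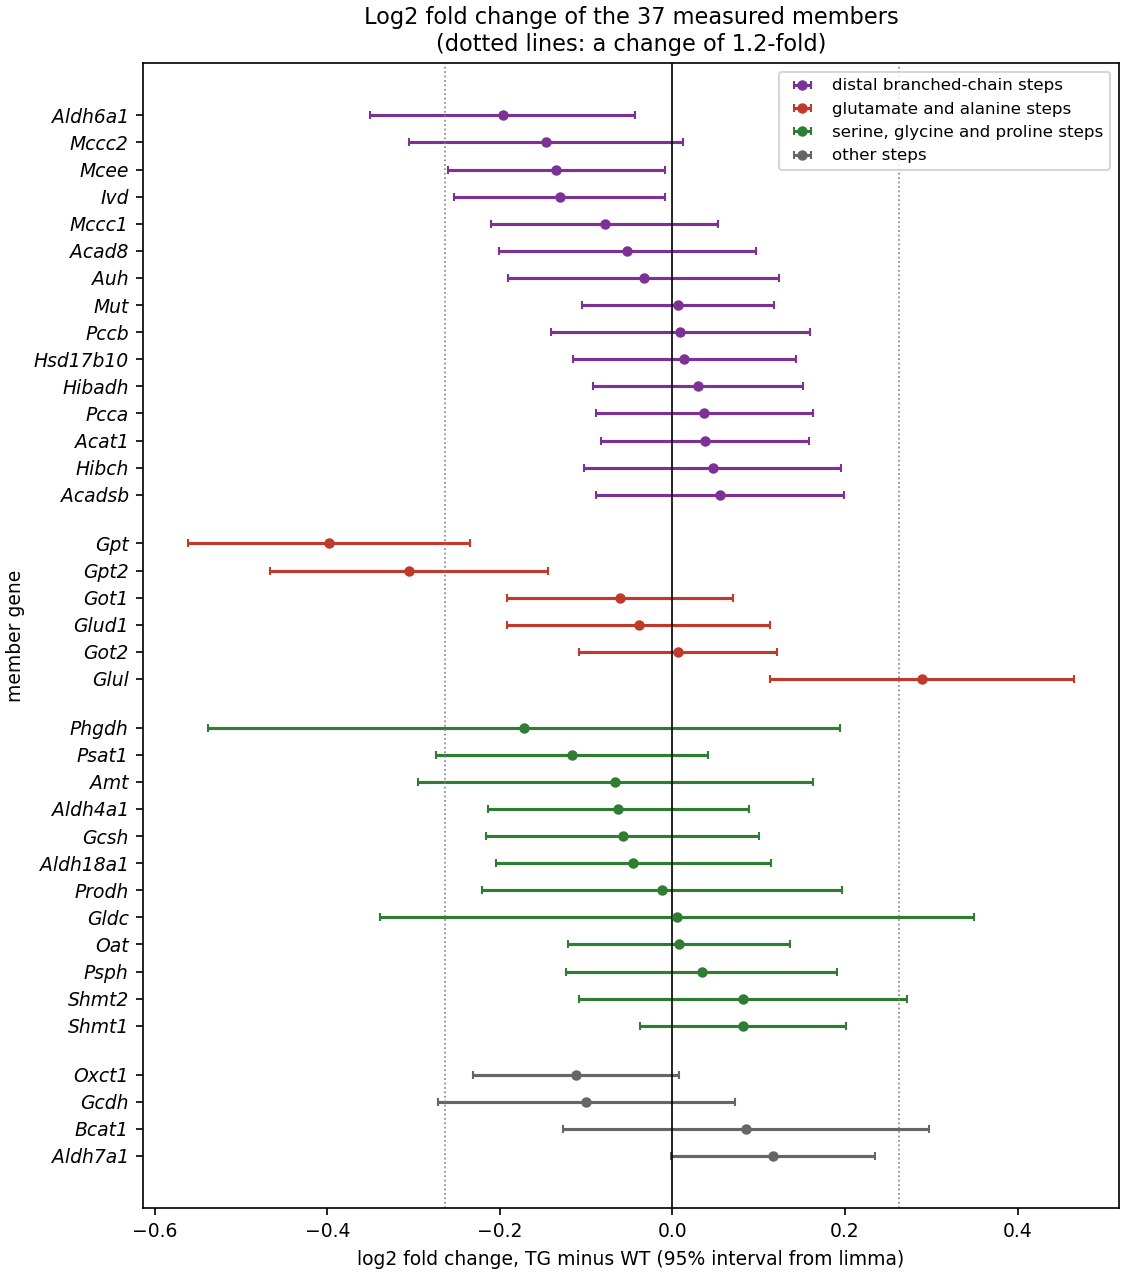
Log2 fold change (x axis, TG minus WT) of each of the 37 measured members (y axis), with 95% intervals from limma as bars, ordered by size within each group of steps. Gpt and Gpt2 lie farthest to the left and Glul farthest to the right, and 25 intervals lie between the dotted lines at 1.2-fold.

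The glutamate and alanine steps held the 3 largest differences of the set. Gpt encodes the cytosolic alanine aminotransferase, which converts alanine and 2-oxoglutarate to pyruvate and glutamate. Gpt had log2 values of 8.29, 8.12 and 8.12 in TG mice and 8.59, 8.52 and 8.61 in WT mice. All TG values lay below all WT values. The log2 fold change of Gpt was -0.40 (SE 0.067, 95% interval -0.56 to -0.23), or 1.32-fold lower in TG, with a B of -0.15 and an adjusted p = 0.219 from limma. Gpt is among the genes that the study listed as altered on these same arrays, so its direction here is not independent evidence. When the test was restricted to probe sets that the annotation lists, Gpt passed B above 0 (B of 0.84), against 0.416% of all genes called lower in that fit. Its adjusted p from limma was 0.0813 there and 0.0608 to 0.407 over the 18 alternatives, and its B was above 0 in 7 of the 17 alternatives that give one. Among these 7 was the fit without the probe sets numbered below the first listed one (B of 0.60). That fit held 28939 probe sets, of which 174 passed B above 0 in either direction. The paper, too, counts fewer interrogated transcripts than the 35556 probe sets of the main fit.

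Gpt2 encodes the mitochondrial alanine aminotransferase. Its log2 values were 8.26, 8.29 and 8.39 in TG mice and 8.53, 8.65 and 8.68 in WT mice. The groups did not overlap, and the TG mouse with the highest Gpt2 value was the third, unlike for Gpt, where it was the first. The log2 fold change of Gpt2 was -0.31 (SE 0.066, 95% interval -0.47 to -0.14), or 1.24-fold lower in TG (adjusted p = 0.224 from limma). It was -0.35 to -0.28 with any 1 mouse left out. The hepatocyte marker summary was 5.62 to 5.79 in TG and 5.70 to 5.80 in WT.

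Glul, the synthetase that forms glutamine from glutamate and ammonia, was the member with the largest difference in the other direction. It had log2 values of 11.85, 11.82 and 11.94 in TG mice and 11.47, 11.68 and 11.60 in WT mice. Every TG value lay above every WT value, and the WT mice spread more widely than the TG mice. The log2 fold change was 0.29 (SE 0.073, 95% interval 0.11 to 0.47), or 1.22-fold higher in TG (adjusted p = 0.232 from limma). The probe set with the highest mean for Glul is numbered between those of C1d and Spred2, and none of its 20 nearest named probe sets by number belongs to a gene on the chromosome of Glul. For the other 36 members the same count was 11 of 20 for Oxct1 and 18 to 20 for the rest. Which locus this Glul probe set reads was not tested. The dimmer Glul probe set, with 18 of 20 such neighbours, had log2 values of 10.17, 10.09 and 10.17 in TG mice and 9.71, 9.97 and 9.85 in WT mice. Its log2 fold change was 0.30 (SE 0.078, adjusted p = 0.234 from limma), close to that of the brighter one, and its groups did not overlap either.

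**Figure D2:**
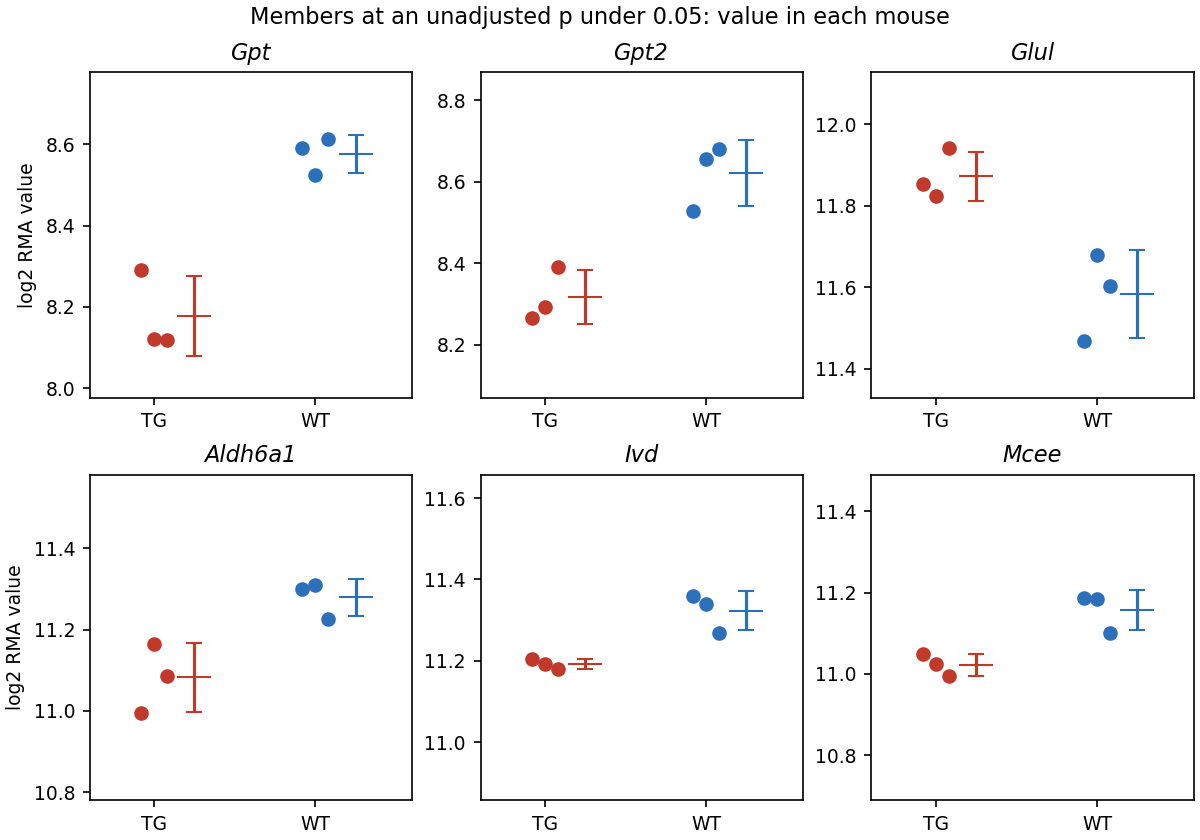
Log2 RMA values (y axis, a span of 0.8 in every panel) of the 6 members at an unadjusted p under 0.05 in 3 TG (red) and 3 WT (blue) mice. Points are mice, and the bar with whiskers is the group mean with 1 SD. For Glul every red point is above every blue one, and for the other 5 genes every red point is below.

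The aspartate aminotransferases and glutamate dehydrogenase lay near 0. Got1, the cytosolic aspartate aminotransferase of the malate-aspartate shuttle, had 13.15, 13.08 and 13.06 in TG mice and 13.13, 13.21 and 13.13 in WT mice. Its log2 fold change was -0.061 (SE 0.054), and the groups overlapped. Got2, the mitochondrial form, had 12.78, 12.72 and 12.76 in TG mice and 12.74, 12.74 and 12.76 in WT mice, with a log2 fold change of 0.0062 (SE 0.047, 95% interval -0.11 to 0.12). A second probe set of Got2 had a log2 fold change of -0.0059 (SE 0.047), and none of its 20 neighbours by number lies on the chromosome of Got2. Glud1, which releases ammonia from glutamate, had a mean log2 value of 10.71 ± 0.085 in TG and 10.75 ± 0.042 in WT (SD, n = 3 each) and a log2 fold change of -0.039 (SE 0.063). Of the 6 genes in these steps, 2 were lower and 1 was higher by limma's unadjusted p, against 8.76% and 6.65% of all genes, and their median log2 fold change was -0.050.

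In the distal branched-chain steps, 3 of 15 genes were lower and none was higher by the unadjusted p from limma, against 8.76% and 6.65% of all genes. All TG values lay below all WT values for 5 of 15 and above them for none, against 13.6% and 12.2% of all genes. The median log2 fold change was 0.0061, with 7 genes lower and 8 higher in their means. The 3 genes stand at different places in the pathway. Aldh6a1, methylmalonate semialdehyde dehydrogenase of the valine route, had log2 values of 11.00, 11.17 and 11.09 in TG mice and 11.30, 11.31 and 11.23 in WT mice. The groups did not overlap, with a gap of less than the spread among TG mice. Its log2 fold change was -0.20 (SE 0.063, 95% interval -0.35 to -0.043, adjusted p = 0.268 from limma), or 1.15-fold lower in TG.

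Ivd, isovaleryl-CoA dehydrogenase, is the first enzyme that belongs to the leucine route alone. It had 11.20, 11.19 and 11.18 in TG mice and 11.36, 11.34 and 11.27 in WT mice, so that the TG mice were nearly equal and all below the WT mice. The log2 fold change of Ivd was -0.13 (SE 0.050, 95% interval -0.25 to -0.0087), or 1.09-fold lower in TG. Mcee, methylmalonyl-CoA epimerase of the propionyl-CoA route, had 11.05, 11.03 and 10.99 in TG mice and 11.19, 11.18 and 11.10 in WT mice. Its log2 fold change was -0.13 (SE 0.052, 95% interval -0.26 to -0.0092), also without overlap. The adjusted p from limma was 0.304 for Ivd and for Mcee. With 1 mouse left out in turn, Gpt, Gpt2 and Glul kept an unadjusted p under 0.05 from limma in 6 of 6 cases, Aldh6a1 in 3, and Ivd and Mcee in 1 each. These fits reuse the arrays on which the genes were picked at that p, so they are not independent evidence.

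The subunits of methylcrotonyl-CoA carboxylase, the biotin enzyme after Ivd in the leucine route, both had lower means in TG. Mccc2, the beta subunit, had 9.47, 9.49 and 9.40 in TG mice and 9.54, 9.70 and 9.56 in WT mice, without overlap. Its log2 fold change was -0.15 (SE 0.065) and its 95% interval, -0.30 to 0.012, included 0. Mccc1, the alpha subunit, had 9.39, 9.41 and 9.32 in TG mice and 9.43, 9.51 and 9.41 in WT mice, with a log2 fold change of -0.078 (SE 0.054). The groups of Mccc1 did not overlap either, by a narrow gap. Auh, the methylglutaconyl-CoA hydratase that follows, had a log2 fold change of -0.033 (SE 0.065) with overlapping groups.

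In the isoleucine route, Acadsb, the short/branched-chain acyl-CoA dehydrogenase, had a log2 fold change of 0.055 (SE 0.059). Hsd17b10, which oxidises the hydroxyacyl intermediate, had 0.014 (SE 0.053), and Acat1, the mitochondrial acetoacetyl-CoA thiolase, had 0.038 (SE 0.050). The groups of these 3 genes overlapped. In the valine route, Acad8, isobutyryl-CoA dehydrogenase, had a log2 fold change of -0.052 (SE 0.061). Hibch, which frees hydroxyisobutyrate from CoA, had 0.047 (SE 0.061), and Hibadh, its dehydrogenase, had 0.029 (SE 0.050). A second, dim Hibadh probe set lay at 3.95 to 4.31 in TG and 3.83 to 4.18 in WT, with overlap. Of the 4 valine genes Aldh6a1 alone passed the unadjusted p.

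The carboxylase and mutase of the propionyl-CoA route had smaller differences than Mcee, which were not tested against it. Pcca, the alpha subunit of propionyl-CoA carboxylase, had 9.98, 9.995 and 9.89 in TG mice and 9.93, 9.90 and 9.93 in WT mice. Pccb, the beta subunit, had 10.98, 10.99 and 10.91 in TG mice and 10.96, 11.03 and 10.87 in WT mice. Their log2 fold changes were 0.037 (SE 0.052) and 0.0092 (SE 0.062), and both overlapped. Mut, the cobalamin-dependent methylmalonyl-CoA mutase, had a mean log2 value of 11.03 ± 0.0093 in TG and 11.03 ± 0.021 in WT (SD, n = 3 each). The log2 fold change of Mut was 0.0061 (95% interval -0.11 to 0.12), which had the smallest SE of the set, 0.046. For 13 of the 15 distal branched-chain genes the 95% interval lay within 1.2-fold, the exceptions being Aldh6a1 and Mccc2.

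None of the 12 measured genes of serine, glycine and proline metabolism passed an unadjusted p under 0.05 from limma in either direction, against 15.4% of all genes. Their log2 fold changes ran from -0.17 to 0.082 with a median of -0.029, and 7 had lower and 5 had higher means in TG. Phgdh, the dehydrogenase that commits a glycolytic intermediate to serine synthesis, had the lowest log2 fold change, -0.17 (SE 0.15). It had log2 values of 7.53, 6.92 and 7.20 in TG mice and 7.31, 7.45 and 7.41 in WT mice. The TG mice spread over 0.60, more than for any other member, and the first TG mouse was above every WT mouse. Psat1, the next enzyme of serine synthesis, had 6.68, 6.58 and 6.74 in TG mice and 6.78, 6.85 and 6.73 in WT mice. Its log2 fold change was -0.12 (SE 0.065), and the groups overlapped. Psph, the last enzyme of that route, had a log2 fold change of 0.034 (SE 0.065).

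Shmt1 and Shmt2, the cytosolic and mitochondrial enzymes that interconvert serine and glycine, had nearly equal differences. Shmt1 had log2 values of 7.32, 7.25 and 7.26 in TG mice and 7.17, 7.20 and 7.21 in WT mice. It was the only gene of these steps whose groups did not overlap, with a log2 fold change of 0.082 (SE 0.049, adjusted p = 0.460 from limma). Shmt2 had 8.79, 8.69 and 8.84 in TG mice and 8.63, 8.83 and 8.62 in WT mice, with overlap and a log2 fold change of 0.082 (SE 0.078).

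The glycine cleavage system breaks glycine down in mitochondria. Its dehydrogenase Gldc was dim, at 5.57, 5.63 and 5.98 in TG mice and 5.91, 5.53 and 5.73 in WT mice, and its log2 fold change of 0.0053 had a wide 95% interval, -0.34 to 0.35. Its lipoyl carrier Gcsh had -0.058 (SE 0.065) and its aminomethyltransferase Amt had -0.066 (SE 0.094). Gldc, Amt, Psat1 and Bcat1 had a mean below 6.91, the median over all probe sets of their means. For the proline genes, Prodh and Aldh4a1, which oxidise proline to glutamate, had log2 fold changes of -0.012 (SE 0.086) and -0.063 (SE 0.062). Aldh18a1, which starts proline synthesis from glutamate, had -0.045 (SE 0.066), and Oat, the ornithine aminotransferase that joins both routes, had 0.0078 (SE 0.053). The 95% interval lay within 1.2-fold for 7 of these 12 genes.

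Of the 4 other genes none passed an unadjusted p under 0.05 from limma, against the same 15.4%. Aldh7a1, an aldehyde dehydrogenase of lysine breakdown, had log2 values of 8.52, 8.58 and 8.53 in TG mice and 8.40, 8.46 and 8.42 in WT mice. All TG values lay above all WT values, with a log2 fold change of 0.12 (SE 0.049) and a 95% interval of -0.0016 to 0.23. Gcdh, the glutaryl-CoA dehydrogenase of the same lysine route, had 9.21, 9.08 and 9.05 in TG mice and 9.14, 9.31 and 9.19 in WT mice, with overlap and a log2 fold change of -0.10 (SE 0.071). Oxct1, the CoA transferase with which heart muscle uses ketone bodies, had 12.18, 12.21 and 12.18 in TG mice and 12.26, 12.34 and 12.30 in WT mice. The groups of Oxct1 did not overlap, and its log2 fold change was -0.11 (SE 0.049, 95% interval -0.23 to 0.0075). Of the 20 named probe sets nearest to its own by number, 11 belong to genes on its chromosome.

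Bcat1, the cytosolic branched-chain aminotransferase, had 6.52, 6.35 and 6.48 in TG mice and 6.37, 6.23 and 6.49 in WT mice, with a log2 fold change of 0.085 (SE 0.087). Its mitochondrial counterpart Bcat2, which is upstream of the set, had 9.40, 9.37 and 9.45 in TG mice and 9.78, 9.71 and 9.81 in WT mice and fell by 0.36 on the log2 scale (SE 0.053, B of 0.45, adjusted p = 0.205 from limma). Dbt, a subunit of the ketoacid dehydrogenase that follows, fell by 0.50 (SE 0.048, B of 2.20, adjusted p = 0.129 from limma). Bcat2 and Dbt were the 2 of 8 upstream branched-chain genes lower at B above 0, against 0.211% of all genes, and both are named by the study from these arrays.

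Partner genes of the same reaction or enzyme were compared by their difference within each array, which asks whether their changes were unequal and not which was more abundant. For 6 pairs an exact permutation test (two-sided) was run, whose smallest possible p with 3 against 3 mice is 0.10, so that no pair could pass 0.05. The Gpt minus Gpt2 difference was -0.093 (SE 0.10, exact p = 0.40, adjusted p = 0.60 over the 6 pairs), within the spread between mice. The Got1 minus Got2 difference was -0.067 (SE 0.037, exact p = 0.20, adjusted p = 0.40) and the Shmt1 minus Shmt2 difference 0.00014 (SE 0.077, exact p = 1.0). For subunits of 1 enzyme, the Mccc1 minus Mccc2 difference was 0.068 (SE 0.025), and the TG mice lay above the WT mice (exact p = 0.10, adjusted p = 0.30). The Pcca minus Pccb difference was 0.028 (SE 0.057, exact p = 0.70, adjusted p = 0.84). The largest was Bcat1 minus Bcat2, at 0.44 (SE 0.065, exact p = 0.10, adjusted p = 0.30), with all TG mice above all WT mice. Most of it was the change of Bcat2, at -0.36, against 0.085 for the dim Bcat1. Bcat2 is outside the set and its fall was known when the pairs were chosen, so this separation is not independent evidence. The plot of within-array differences shows each mouse.

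**Figure D3:**
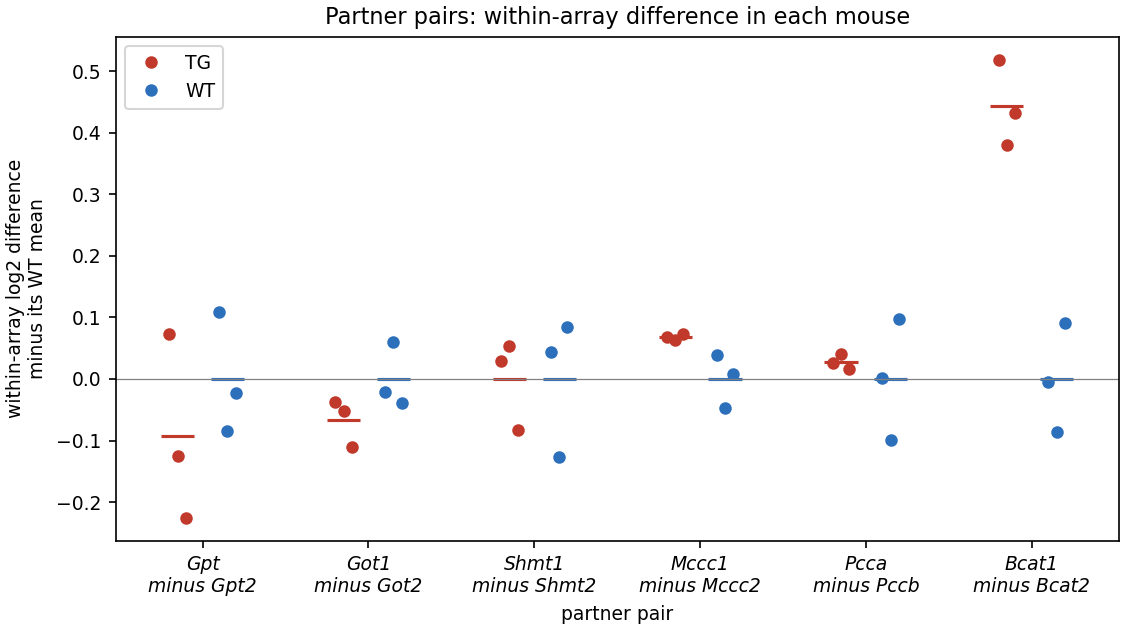
Within-array log2 difference between 2 partner genes, minus its mean over WT mice (y axis), for 6 pairs (x axis) in 3 TG (red) and 3 WT (blue) mice, with the group means as lines. The TG mice stand clear of the WT mice for Bcat1 minus Bcat2, at 0.38 to 0.52, and by a narrow gap for Mccc1 minus Mccc2.

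The direction of many members near 0 depended on how the arrays were scaled. In the distal branched-chain steps the median log2 fold change was 0.0061 as deposited, 0.057 when each array was centred on its median and -0.074 after a second quantile normalization, and 7, 6 and 14 of 15 genes had lower means in TG. Over all genes the median was -0.018, 0.033 and -0.0086 under the same scalings. In the glutamate and alanine steps the median was -0.050, 0.0013 and -0.10, while Gpt and Gpt2 stayed lower and Glul stayed higher under each. In the serine, glycine and proline steps it was -0.029, 0.022 and -0.029. With limma's unadjusted p under 0.05, 3, 0 and 4 of the distal branched-chain genes were lower under the 3 scalings, in that order. Aldh6a1, Ivd and Mcee had lower means in TG under each scaling, but none of them passed that p with centred arrays. Over all genes, 1746 were lower and 1325 higher at that p as deposited, 805 and 2577 with centred arrays, and 1337 and 1102 after the second quantile normalization.

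**Figure D4:**
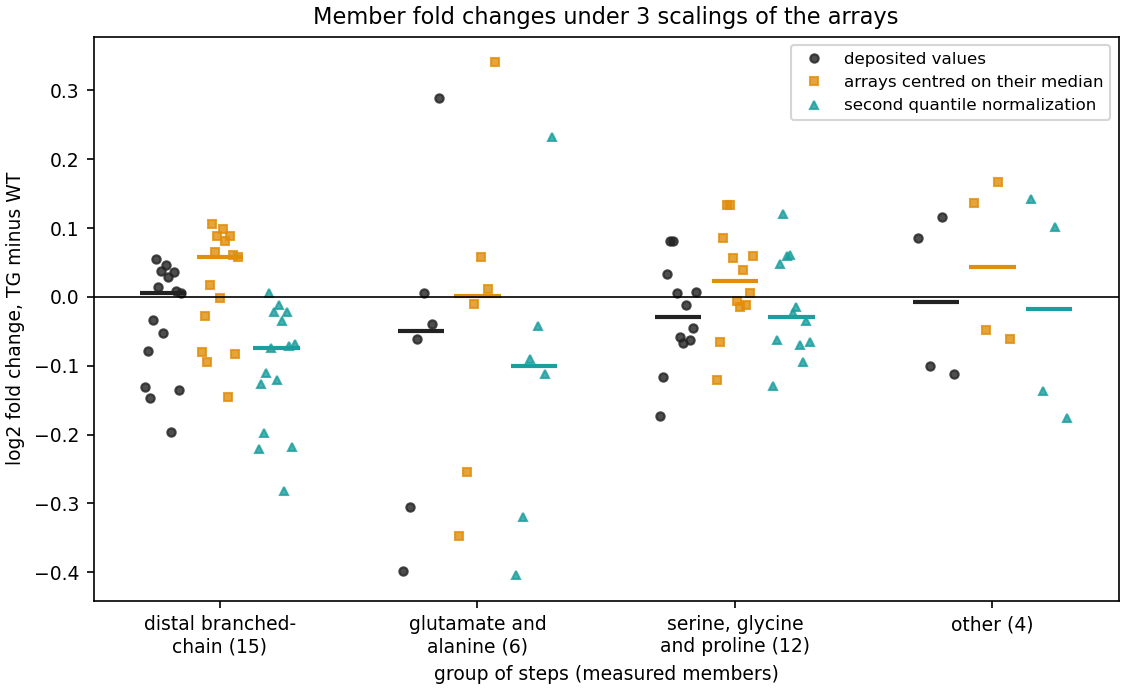
Log2 fold change (y axis, TG minus WT) of each measured member, by group of steps (x axis), for deposited values (black circles), arrays centred on their median (orange squares) and a second quantile normalization (green triangles), with medians as lines. The distal branched-chain medians are 0.0061, 0.057 and -0.074, and the 2 lowest points and the highest point of the glutamate and alanine steps are Gpt, Gpt2 and Glul under each scaling.

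Across the mice, the median deviation of the members from their WT means was -0.0061, -0.040 and -0.041 in the TG mice and -0.0044, 0.037 and -0.024 in the WT mice, so the set as a whole overlapped between the groups. In other lists of amino acid genes, few members passed. Of 10 further branched-chain, ketone and cobalamin genes, 15 amino acid transporters, 11 glutamine, asparagine and urea genes, 16 folate and methionine genes, 16 other breakdown genes and 12 regulators of the amino acid response, none passed B above 0. At an unadjusted p under 0.05 from limma, 1 of the 12 regulators was higher and none lower, 2 transporters were higher and 2 lower, and 1 folate or methionine gene was higher and 2 lower. Of the further branched-chain genes 1 was higher and 1 lower, of the glutamine, asparagine and urea genes 2 were lower, and of the other breakdown genes 1 was lower. Of the 8 upstream genes 3 were lower. Over the 87 genes of all these lists, the upstream steps included, 11 were lower and 5 higher at that p (12.6% and 5.75%, against 8.76% and 6.65% of all genes), and their median log2 fold change was -0.052.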

How the data were processed

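The authors hybridised RNA of cardiac ventricles from 3 TG and 3 WT mice to 1 array per mouse and deposited log2 values per probe set. Per the labels RMA was used. Which version was used is not stated in those notes or the paper. The paper counts fewer interrogated transcripts than the 35556 probe sets fitted here, and does not state which were left out. Without probe sets numbered below the first listed one, 28939 remain. Groups come from the sample titles, and the line, promoter, age and littermate status from the paper. Each sample is a different mouse. Of 35556 probe sets, 21789 had 1 gene symbol (brought up to date with RefSeq gene identifiers for GRCm38.p6), 1621 had several and 12146 were unnamed. All 6 columns were used, with 0 left out.

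The fit of TG minus WT used R 4.3.3 and limma 3.58.1 (lmFit, then eBayes, no trend, no filter) over all probe sets, with Benjamini-Hochberg adjustment and intervals at 95%. The script was tested on simulated data. The members, gene lists, partner pairs and tests were chosen with earlier results of these data known, and no set test was run. All members are named. Values in each mouse are given for members at an unadjusted p under 0.05, the partner pairs and the 3 largest differences of each group of steps. Of other lists only genes at B above 0 are named. A marker summary is the mean log2 value of its genes on an array. Precision is limited by the number of arrays. The alternatives were other sets of probe sets tested, a filter on dim ones, 2 scalings, an intensity trend, robust or no moderation, array weights, the mouse number as a block, an assumed share of 0.05, averaging all probe sets of a gene, and leaving out each mouse.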

Additional observations from a re-analysis of the deposited data

How the results depend on the processing

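The direction and call of the members were kept in 624 of 662 recomputed values, 8 gained B above 0 and 30 changed sign, none of these in a gene at an unadjusted p under 0.05. Many of these values could not change sign. The log2 fold change stays the same when only the probe sets tested, trend, moderation, block or assumed share is altered. Averaging probe sets alters it only for genes with several. At B above 0, 1 member (Gpt) was lower when only listed probe sets were tested, without the lowest-numbered probe sets, with only probe sets above the median level, with an intensity trend and with array weights, and 2 (Gpt and Gpt2) with an assumed share of 0.05. With 1 mouse left out this count was 0 to 1, the 1 being Gpt without TG replicate 1 (B of 0.32). At an unadjusted p under 0.05 from limma, 2 members were lower with arrays centred on their median, where 805 of 19938 genes were lower and 2577 higher. After a second quantile normalization 1337 genes were lower and 1102 higher. For the other alternatives in this paragraph the share over all genes at that p is not given here. The number of members lower was 7 with only probe sets above the median level, a second quantile normalization or an intensity trend. The filter on level leaves out Psat1, Gldc, Amt and Bcat1. It was 6 with listed probe sets only or no moderation. With 1 mouse left out 2 to 5 were lower, with 3 without TG replicate 1, 2 or 3 and 2 without WT replicate 1 or 2. The number higher was 2 with listed probe sets only, probe sets above the median level, a second quantile normalization, an intensity trend or array weights, and 3 with centred arrays or no moderation. The cause was not tested.

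The mouse numbers share no stated litter or batch, and the deviations of same-numbered mice correlated at 0.024, -0.00044 and 0.057. The highest such correlation was with the same number for 3 of 6 mice. With the replicate block 3 members were lower at an unadjusted p under 0.05 and none passed B above 0. The median log2 fold change of the distal branched-chain steps was 0.057 with centred arrays, -0.074 after a second quantile normalization and -0.032 to 0.013 with 1 mouse left out, lowest without WT replicate 3. After the second quantile normalization these log2 fold changes turned negative: Hsd17b10 -0.074, Acat1 -0.022, Hibch -0.012, Hibadh -0.035, Pcca -0.021, Pccb -0.071, Mut -0.068, Got2 -0.043 and Oat -0.065. With centred arrays Auh was 0.018, Glud1 0.012, Prodh 0.039 and Aldh18a1 0.0058, and with array weights Gldc was -0.012. With 1 mouse left out the sign also changed for Auh (-0.085 to 0.0095), Hsd17b10 (-0.015 to 0.047), Pccb (-0.032 to 0.049), Mut (-0.0048 to 0.017), Got2 (-0.0067 to 0.023), Glud1 (-0.071 to 0.0092), Psph (-0.014 to 0.070), Gldc (-0.12 to 0.097), Prodh (-0.071 to 0.054) and Oat (-0.018 to 0.038). The same held for the differences Shmt1 minus Shmt2 (-0.063 to 0.042) and Pcca minus Pccb (-0.022 to 0.076). Over the whole array, 130 probe sets passed B above 0, against 69 with the replicate block, 287 with an intensity trend, 714 with an assumed share of 0.05 and 29 to 112 with 1 mouse left out (29 without TG replicate 2, 51 without TG replicate 3, 56 without WT replicate 1 and 37 without WT replicate 2). The adjusted p passed for 2 probe sets, against 0 to 52 over the alternatives. No B exists without moderation. With 3 mice per group, the widest member intervals, those of Phgdh and Gldc, cannot show differences of the size seen for Gpt2.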
